A study of Mus musculus with 6 samples.

Results

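Immediate early genes are the genes that cells transcribe first after a stimulus, without waiting for new protein. Kinase cascades reach factors that already sit in the nucleus, among them SRF with its ETS partners and CREB, and these switch on AP-1, EGR and NR4A transcription factors together with proteins that shut the response down again. Genes of this kind are also known to rise when tissue is dissociated and cells are sorted, and the heat shock proteins of the Hsp70 type answer misfolded protein. The list followed here held 32 such genes, chosen by name as immediate early and handling stress genes, with earlier results of these data known. Probe sets were assigned to a gene when the array's annotation gave that gene's symbol and no other. A total of 31 genes were measured, out of 20059 genes measured in all, and they rested on 249 of their 287 named probe sets, those above the median level of the table (log2 5.89). Hspa1b was the gene with no value, since no probe set carried its symbol, alone or together with others.

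The samples were KLS cells, the Kit-positive, Sca-1-positive, lineage-negative bone marrow fraction that holds the blood stem cells and early progenitors, from 3 wild-type and 3 Dnmt3a +/- samples of mouse. The Dnmt3a +/- genotype is heterozygous for the DNA methyltransferase gene Dnmt3a, and the labels give no treatment for either group. The construct of the disrupted allele, the strain, the age and whether each array came from 1 animal or a pool were not stated in the labels, nor was the handling of each sample before lysis. Total RNA was amplified as whole-transcript cDNA and read on 1-colour arrays, so that a lower value in a bulk sample cannot tell fewer expressing cells from less RNA per cell. Nothing in the labels ties the 3 arrays of a genotype to separate mice, so each p-value reflects only how much these arrays varied, in part perhaps for technical reasons.

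Dnmt3a was lower on all Dnmt3a +/- arrays (8.20 to 8.38) than on any wild-type array (8.50 to 8.70), where 9.05% of all genes were non-overlapping on that side. The difference was -0.31 (SE 0.12, adjusted p = 0.631, limma), and which exons the allele removes is not known here. The arrays also differed in ways that the genotype does not describe. Dnmt3a +/- replicate 2 had the lowest correlations with other arrays (Pearson 0.897 to 0.919 across genes, against 0.938 to 0.964 among the other 5 arrays). It carried the lowest value of 32.5% of all genes and the highest of 23.2%. A KLS marker list held Kit and Ly6a (Sca-1), which belong to the gate named above, with Cd34, Flt3, Slamf1, Procr, Mecom and Hlf. All 8 were measured, with summed intensities from 6560 to 6999 in wild-type and 5745 to 6303 in Dnmt3a +/- samples. The median difference of this list was -0.10, and -0.01 after cyclic loess. Marker lists of other cells were summed in the same way over probe sets chosen for lying above the filter, so a sum above 0 does not show that those cells were present. The neutrophil list (11 of 12 measured) summed to 11188 to 16727 in wild-type and 14568 to 20487 in Dnmt3a +/- samples, the monocyte and macrophage list (10 of 10) to 2800 to 3062 and 2792 to 3159, the B lineage list (8 of 9) to 1087 to 1259 and 1233 to 1504, and the T and NK list (8 of 9) to 1906 to 2330 and 1793 to 2312. The erythroid list (6 of 8) summed to 1436 to 2473 and 1386 to 1556, and the megakaryocyte list (6 of 6) to 894 to 1111 and 821 to 1186.

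No immediate early gene passed the test between genotypes. Among the 31 measured genes 19 were lower and 12 higher in Dnmt3a +/- samples, with a median log2 difference of -0.11 (Dnmt3a +/- minus wild-type), and over all genes 54.3% were lower, with a median of -0.02. With limma, fitted on all genes with Benjamini-Hochberg adjustment, 0 of the 31 passed an adjusted p of 0.05 (range 0.631 to 0.999), as did 0% of all genes. At an unadjusted p under 0.05 there were again 0 of the 31, where 7.49% of all genes lay. The genotypes did not overlap for 3 of the 31. Ier5 was lower on every Dnmt3a +/- array, where 9.05% of all genes were non-overlapping on that side, and Klf4 and Atf3 were higher, where 6.74% were. Without wild-type replicate 1 the balance turned, with 12 lower, 19 higher and a median of 0.03. When all genes were cut into 4 classes of equal size by level, the brightest held 15 of the 31, and there the median difference of all genes was -0.13 (-0.06 without Dnmt3a +/- replicate 2), and in the dimmest it was 0.07 (0.04 without that array).

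**Figure D1:**
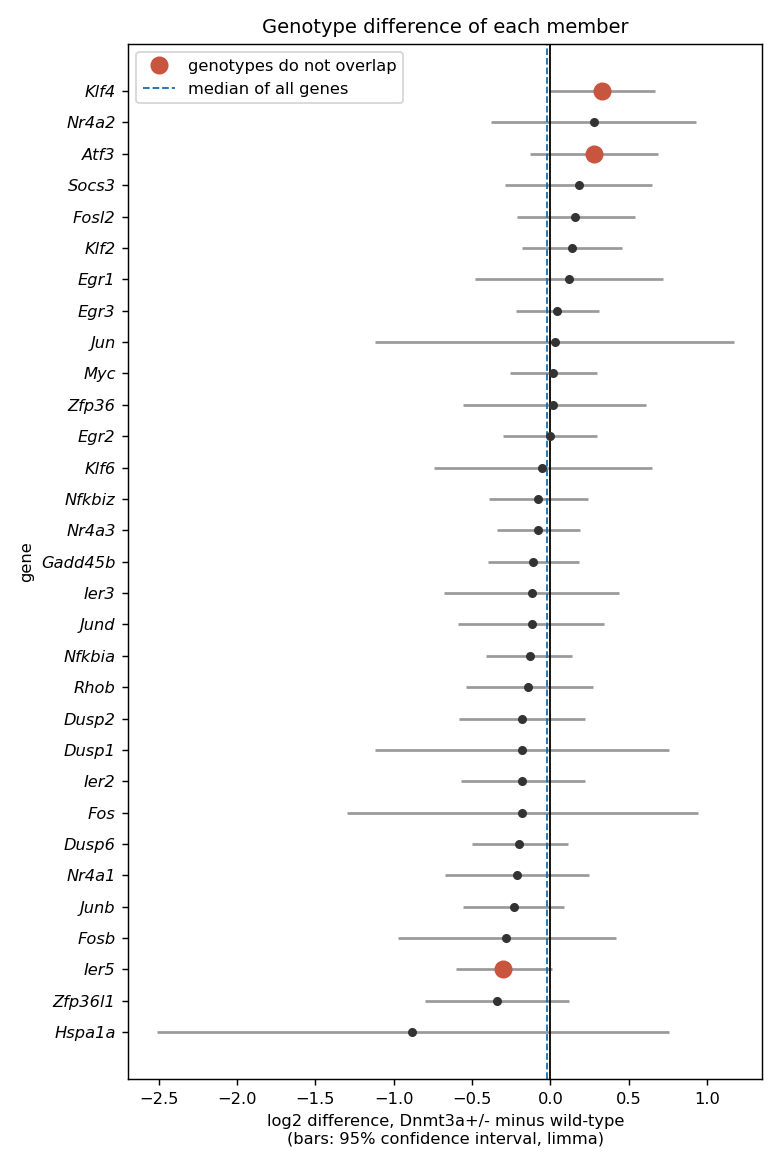
Log2 difference, Dnmt3a +/- minus wild-type, of each of the 31 measured genes with its 95% confidence interval from limma (3 arrays per genotype). Larger red points mark Klf4, Atf3 and Ier5, whose genotypes did not overlap, and the dashed line is the median of all genes at -0.02. All 31 intervals include 0, and the widest is that of Hspa1a (-2.51 to 0.76).

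The genes varied widely between arrays of the same genotype, and the array described first was chosen after its values were seen. Wild-type replicate 1 held the highest value for 22 of the 31 genes, where 18.0% of all genes were highest on that array. With the median of a gene's probe sets in place of their mean the count was 15. Dnmt3a +/- replicate 3 held the lowest value for 15 of the 31, against 15.6% of all genes. Among the wild-type arrays alone, replicate 1 was highest for 27 of the 31 and for 38.8% of all genes. The median deviation of the 31 genes from their 6-array means was 0.26, -0.03 and -0.16 on the wild-type arrays in order of their numbers, and -0.03, 0.10 and -0.17 on the Dnmt3a +/- arrays. The high arrays thus lay in both genotypes, wild-type replicate 1 and Dnmt3a +/- replicate 2, and so did the low ones, the arrays numbered 3. The deviation of all genes stayed between -0.03 and 0.02.

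**Figure D2:**
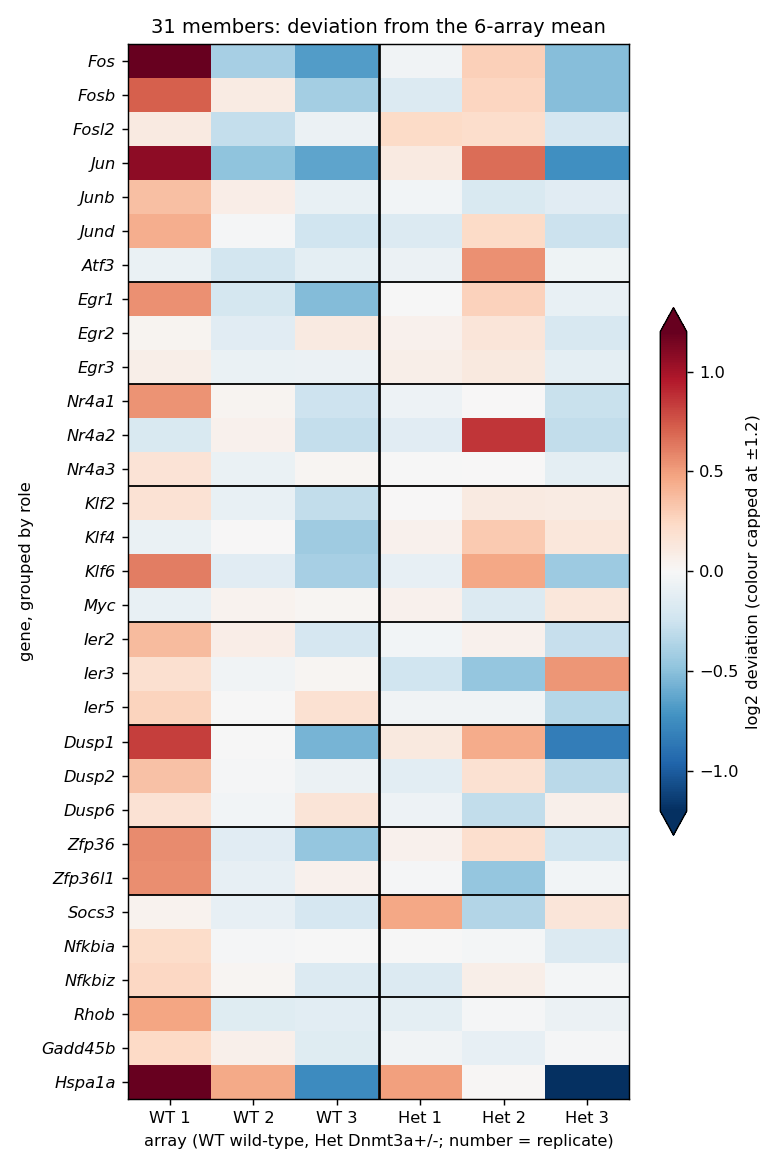
Deviation of each gene's log2 value from its mean over the 6 arrays, for the 31 measured genes grouped by role (rows) on the 3 wild-type and 3 Dnmt3a +/- arrays (columns); red is above and blue below the mean, and the colour is capped. Wild-type replicate 1 is red for most rows and holds the highest value of 22 genes, and Dnmt3a +/- replicate 3 holds the lowest of 15.

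A total of 11 of the 31 genes (35.5%) spanned at least 1 log2 unit between their highest and lowest array, where 8.57% of all genes did. They were Hspa1a, Fos, Jun, Dusp1, Fosb, Nr4a2, Egr1, Klf6, Zfp36, Zfp36l1 and Ier3. Of these, 9 were highest on wild-type replicate 1 and 6 lowest on Dnmt3a +/- replicate 3. The median range was 0.70 for the 31 genes and 0.49 for all genes, and the median residual SD within genotypes was 0.25 and 0.17.

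**Figure D3:**
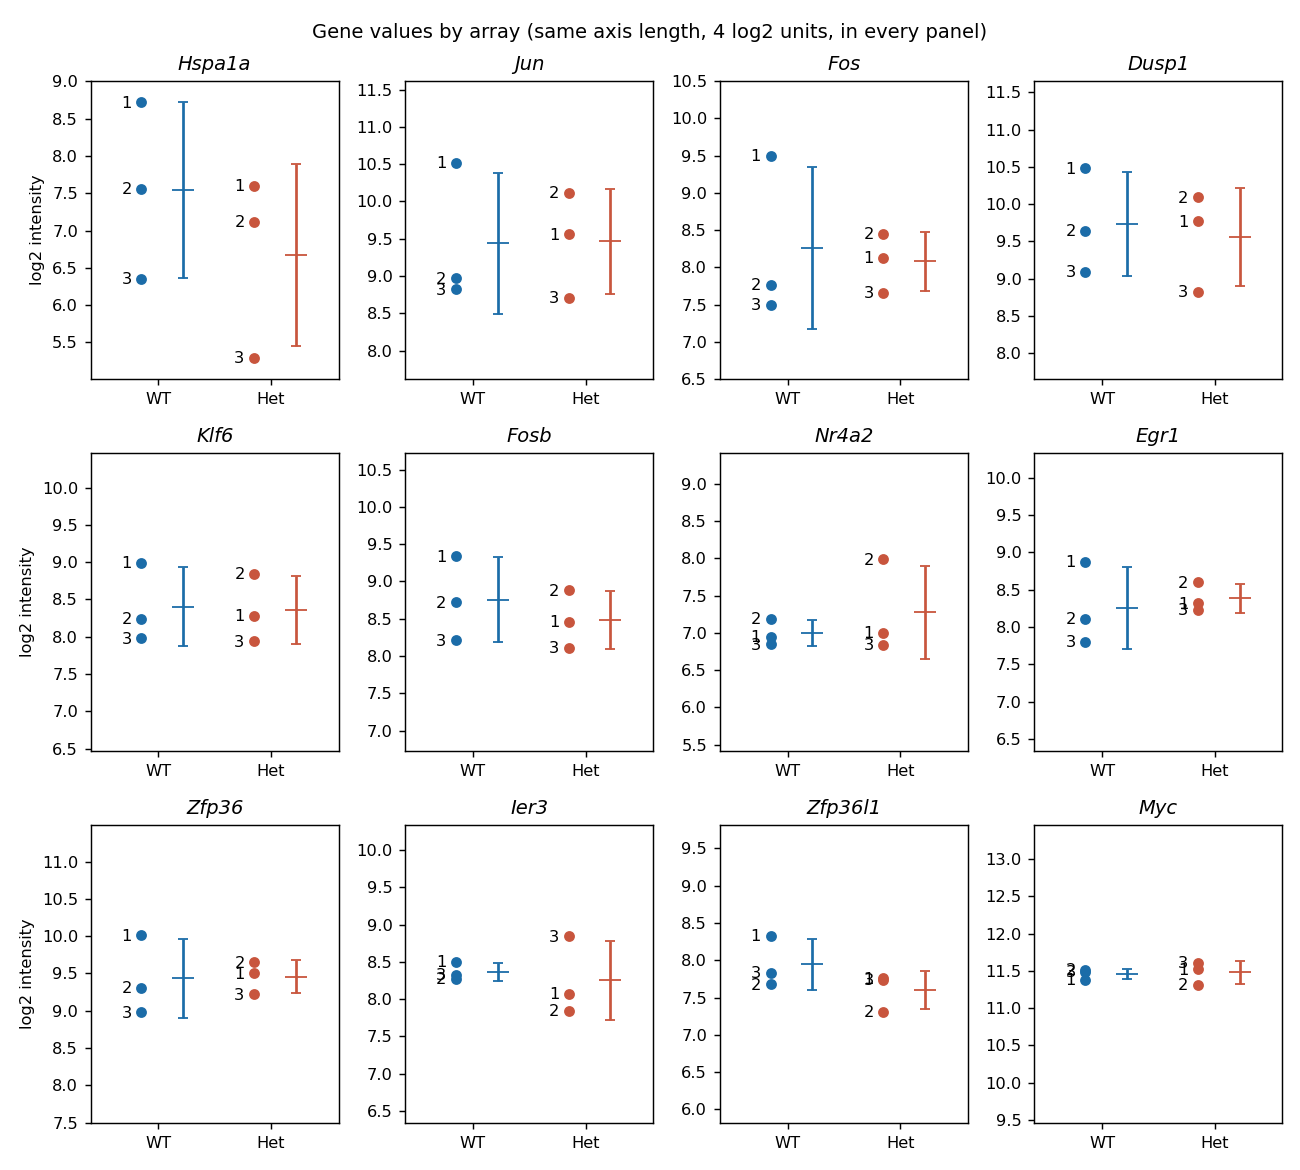
Log2 intensity of the 11 genes with a range of at least 1 log2 unit, and of Myc, on each array (points with replicate numbers) beside the mean and SD of 3 arrays (bars) for wild-type (WT) and Dnmt3a +/- (Het); each panel spans 4 log2 units. Jun runs from 8.71 to 10.52 with wild-type replicate 1 and Dnmt3a +/- replicate 2 on top, while Myc stays between 11.31 and 11.61.

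The AP-1 factors are dimers of FOS and JUN proteins that bind DNA soon after a stimulus. Fos, the prototype of the class, read 9.50, 7.77 and 7.50 on the wild-type arrays against 8.13, 8.45 and 7.66 on the Dnmt3a +/- arrays. Wild-type replicate 1 stood 1.86 above the mean of the other wild-type arrays, and the genotypes overlapped, with the highest array 3.99-fold above the lowest. The difference of -0.18 (SE 0.48, adjusted p = 0.904, limma) became 0.44 without wild-type replicate 1. All 7 probe sets of Fos were highest on that array. Jun, its partner, measured 10.52, 8.97 and 8.82 on wild-type arrays against 9.56, 10.12 and 8.71 on Dnmt3a +/- arrays. Again wild-type replicate 1 and Dnmt3a +/- replicate 2 were high, and 20 of its 24 probe sets peaked on the former. Its means were 9.44 ± 0.94 and 9.46 ± 0.71 (SD, n = 3), with a difference of 0.03 (SE 0.49), or 0.57 without wild-type replicate 1. Fosb, a FOS relative, was likewise highest on wild-type replicate 1 and next on Dnmt3a +/- replicate 2, at 9.34, 8.72 and 8.21 against 8.46, 8.88 and 8.11, with a difference of -0.28 (SE 0.30).

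The remaining AP-1 genes had smaller ranges. Junb measured 8.50, 8.21 and 8.05 on wild-type arrays against 7.95 to 8.10 on the Dnmt3a +/- arrays, with all 6 of its probe sets on the lower side and a difference of -0.23 (SE 0.14). Jund read 7.35 to 8.05 over the 6 arrays with a difference of -0.12 (SE 0.20). Fosl2, which encodes Fra-2, read 6.98 to 7.50 with a difference of 0.16 (SE 0.16). Atf3, a stress-induced factor that pairs with JUN proteins, measured 6.39, 6.25 and 6.36 on wild-type arrays against 6.40, 7.02 and 6.42 on Dnmt3a +/- arrays. Its genotypes did not overlap, but only Dnmt3a +/- replicate 2 stood clear of the rest. Without that array the difference fell from 0.28 (SE 0.18, adjusted p = 0.664, limma) to 0.07, and with no filter on dim probe sets it was 0.09.

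The promoter of Fos is shown because Fos was among the genes with the widest range. The window runs from 250 bases before to 50 bases after the RefSeq start (GRCm38.p6, chr12:85473640-85473939, plus strand), and capitals mark the CREB core TGACG, with first bases at -129 and -66, and the TATA motif TATAAA at -33.
Fos: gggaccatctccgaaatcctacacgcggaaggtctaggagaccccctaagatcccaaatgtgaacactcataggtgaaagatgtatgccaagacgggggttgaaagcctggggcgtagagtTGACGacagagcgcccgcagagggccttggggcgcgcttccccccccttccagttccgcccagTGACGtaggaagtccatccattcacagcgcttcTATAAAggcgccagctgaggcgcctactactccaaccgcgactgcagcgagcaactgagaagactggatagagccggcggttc

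Windows were found for 27 of the 32 genes, and none for Myc, Egr1, Egr3, Ier2 and Nfkbiz. Letters outside the windows were not searched. TGACG was read on either strand in 12 of the 27 and in 20.81% of all 32851 windows of this length. The full palindrome TGACGTCA, which contains TGACG, stood in 1 of the 27 (Dusp1) and in 1.79% of windows. The EGR letters GCGNGGGCG stood in 10 of the 27 and in 5.55%, TATAAA in 6 and in 13.62%, and the AP-1 letters TGANTCA in 1 (Zfp36l1) and in 7.81%. The E-box CACGTG stood in 6 and in 7.15%. A match is a description of letters, not a bound site. A gene can have several windows and was counted when any of them matched. The shares are over single windows, so counts and shares use different units.

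EGR1 to EGR3 are zinc finger factors that bind GC-rich promoters. Egr1 measured 8.87, 8.11 and 7.80 on wild-type arrays against 8.32, 8.60 and 8.23 on Dnmt3a +/- arrays. It was high on wild-type replicate 1 and lowest on wild-type replicate 3, and the Dnmt3a +/- arrays lay between. The difference was 0.12 (SE 0.26, adjusted p = 0.875, limma). Without wild-type replicate 1 it was 0.43, with an unadjusted limma p of 0.0409, and 7.06% of all genes lay under 0.05 in that setting. It was -0.11 without wild-type replicate 3 and -0.09 with the median of its probe sets. Egr2 (6.89 to 7.23, difference 0.00, SE 0.13) and Egr3 (6.71 to 6.95, difference 0.04, SE 0.12) stayed within 0.34 of their own lowest arrays. In both the highest array was Dnmt3a +/- replicate 2 and the lowest Dnmt3a +/- replicate 3.

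NR4A proteins are orphan nuclear receptors whose activity follows their amount. Nr4a1, encoding Nur77, measured 7.69, 7.18 and 6.90 on wild-type arrays against 7.09, 7.15 and 6.88 on Dnmt3a +/- arrays, with a difference of -0.21 (SE 0.20). It peaked on wild-type replicate 1, and without that array the difference was 0.0024. Nr4a2, encoding Nurr1, measured 6.95, 7.19 and 6.85 on wild-type arrays, 7.99 on Dnmt3a +/- replicate 2 and 6.84 on Dnmt3a +/- replicate 3, while Dnmt3a +/- replicate 1 lay between the wild-type values. Its difference was 0.28 (SE 0.28), 0.82 with the filter at the 75th percentile and 0.03 with the median of its probe sets. Only Dnmt3a +/- replicate 2 was high, and there 1 of its 8 probe sets (5192468, singled out after its values were seen) read 10.36, against 5.22 to 7.66 on the other arrays. Nr4a3 read 7.04 to 7.32 with a difference of -0.08 (SE 0.11).

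Among the KLF factors, Klf4, a regulator of monocyte fate and of proliferation, measured 7.13, 7.21 and 6.78 on wild-type arrays against 7.26, 7.52 and 7.34 on Dnmt3a +/- arrays. Each Dnmt3a +/- array lay above each wild-type array, and all 8 of its probe sets had a higher Dnmt3a +/- mean (0.02 to 0.69). The difference of 0.33 (SE 0.15, 95% confidence interval -0.01 to 0.67) had the smallest unadjusted p of the list, 0.0549 (adjusted p = 0.631, limma). It was 0.20 to 0.41 when single arrays were left out, and 0.12 with the dim-probe filter at the 75th percentile. Klf6, a widely expressed stress-responsive factor, read 8.99, 8.24 and 7.98 against 8.28, 8.84 and 7.94, the order of high and low arrays seen in Jun, with a difference of -0.05 (SE 0.30). Klf2, which keeps lymphocytes quiescent, read 7.70 to 8.17 with a difference of 0.14 (SE 0.14). Myc, which drives growth and division, measured 11.38, 11.51 and 11.49 on wild-type arrays against 11.52, 11.31 and 11.61 on Dnmt3a +/- arrays. It varied least within wild-type, by 0.12, and was not high on wild-type replicate 1.

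The IER genes encode small proteins of the immediate early class. Ier5 measured 7.28, 7.01 and 7.20 on wild-type arrays against 6.97, 6.97 and 6.67 on Dnmt3a +/- arrays. Its groups did not overlap but came within 0.04 of each other, and the difference was -0.30 (SE 0.13, 95% confidence interval -0.60 to 0.01, adjusted p = 0.631, limma). It lay between -0.37 and -0.20 when single arrays were left out. Ier2 read 8.94 to 9.60 with its highest array wild-type replicate 1 and a difference of -0.18 (SE 0.17). Ier3, a regulator of cell survival, differed from Jun, at 8.50, 8.27 and 8.33 against 8.07, 7.84 and 8.84, highest on Dnmt3a +/- replicate 3 and lowest on replicate 2 of that genotype, with a difference of -0.12 (SE 0.24).

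The dual-specificity phosphatases remove the phosphates from MAP kinases and so end the signal. Dusp1, which acts mainly on p38 and JNK, measured 10.48, 9.64 and 9.09 on wild-type arrays against 9.77, 10.09 and 8.82 on Dnmt3a +/- arrays. The same arrays as for Jun were high and low, the range was 3.15-fold, and the means were 9.73 ± 0.70 and 9.56 ± 0.66 (SD, n = 3). The difference was -0.18 (SE 0.41, adjusted p = 0.885, limma), or 0.19 without wild-type replicate 1. Dusp2 read 8.65 to 9.33, with 7 of 7 probe sets lower in Dnmt3a +/- samples and a difference of -0.18 (SE 0.17). Dusp6, which acts on ERK, read 8.17 to 8.64 with a difference of -0.20 (SE 0.13).

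The Dusp1 window is shown because it was the only one of the 27 with the full CREB palindrome (GRCm38.p6, chr17:26508423-26508722, minus strand). Capitals mark TGACGTCA at -143 and the single core TGACG at -191.
Dusp1: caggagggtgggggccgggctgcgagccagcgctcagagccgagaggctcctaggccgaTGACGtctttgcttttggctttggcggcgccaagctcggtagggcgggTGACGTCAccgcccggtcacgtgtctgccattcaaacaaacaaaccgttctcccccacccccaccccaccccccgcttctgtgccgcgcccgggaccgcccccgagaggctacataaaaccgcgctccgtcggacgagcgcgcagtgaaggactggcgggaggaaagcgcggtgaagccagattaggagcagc

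ZFP36 proteins bind AU-rich elements and speed the decay of immediate early and cytokine mRNAs. Zfp36, encoding tristetraprolin, measured 10.01, 9.31 and 8.98 on wild-type arrays against 9.50, 9.65 and 9.22 on Dnmt3a +/- arrays. Wild-type replicate 1 was again highest, and the difference was 0.02 (SE 0.25), or 0.31 without that array. Zfp36l1 read 8.33, 7.68 and 7.83 against 7.76, 7.31 and 7.74, with 11 of 13 probe sets lower in Dnmt3a +/- samples. Its difference was -0.34 (SE 0.20, adjusted p = 0.653, limma) and -0.15 without wild-type replicate 1.

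The Zfp36 window (GRCm38.p6, chr7:28379179-28379478, minus strand) is shown because it held a CArG box, the SRF letters, at -58, in capitals. Egr2 was the other of 2 genes among the 27 with these letters, which stood in 1.63% of all windows.
Zfp36: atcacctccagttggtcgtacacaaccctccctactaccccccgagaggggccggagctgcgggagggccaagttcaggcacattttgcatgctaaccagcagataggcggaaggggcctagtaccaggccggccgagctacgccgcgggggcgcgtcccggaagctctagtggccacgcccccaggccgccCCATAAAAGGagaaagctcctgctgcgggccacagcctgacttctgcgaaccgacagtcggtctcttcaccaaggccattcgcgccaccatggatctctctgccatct

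Among feedback genes of cytokine and NF-kappaB signalling, Nfkbia, the inhibitor IkappaB-alpha, read 8.62 to 9.01 with a difference of -0.13 (SE 0.12), which was -0.45 with the median of its probe sets. Nfkbiz, a nuclear IkappaB, read 7.81 to 8.22 with -0.08 (SE 0.14). Both were highest on wild-type replicate 1. Socs3, which blocks JAK kinases after STAT3 activation, measured 6.75, 6.61 and 6.51 on wild-type arrays against 7.18, 6.36 and 6.86 on Dnmt3a +/- arrays. The Dnmt3a +/- arrays spread over 0.82 and spanned the wild-type ones, and the difference was 0.18 (SE 0.20). It ran from -0.01 without Dnmt3a +/- replicate 1 to 0.40 without Dnmt3a +/- replicate 2, and was 0.46 with array weights and -0.13 with the filter at the 75th percentile.

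Among the stress genes, Rhob, a small GTPase induced by growth factors and DNA damage, measured 8.73, 8.11 and 8.13 on wild-type arrays against 8.14, 8.24 and 8.19 on Dnmt3a +/- arrays. Only wild-type replicate 1 stood out, and the difference was -0.14 (SE 0.18). Gadd45b, which activates the p38 pathway under stress, read 7.01 to 7.40 with a difference of -0.11 (SE 0.13).

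Hspa1a, the inducible Hsp70 chaperone, varied most of the 31 genes. It measured 8.72, 7.56 and 6.35 on wild-type arrays against 7.60, 7.12 and 5.29 on Dnmt3a +/- arrays. In both genotypes the array numbered 1 was highest and the array numbered 3 lowest, and the value on Dnmt3a +/- replicate 3 fell under the table's median level of 5.89, so no fold against it is given. The means were 7.55 ± 1.19 and 6.67 ± 1.22 (SD, n = 3), and the difference of -0.88 had an SE of 0.71 and a 95% confidence interval of -2.51 to 0.76 (adjusted p = 0.703, limma). It was -0.29 without wild-type replicate 1, -0.19 without Dnmt3a +/- replicate 3 and -1.47 without wild-type replicate 3, and it was -0.37 with no filter on dim probe sets and -0.07 with array weights. The 3 probe sets behind it had differences of -1.10, -0.89 and -0.63, and each was highest on wild-type replicate 1. Among the Dnmt3a +/- arrays probe set 4438779 was highest on replicate 2 (7.95, against 7.53 on replicate 1), and the other probe sets on replicate 1. A further 6 probe sets were annotated to Hspa1a together with its neighbour Hspa1l and were left out.

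The value of Hspa1a may hold signal of Hspa1b, since these genes are near-identical copies, and whether the probes separate them is not known from the files. Their promoter windows (GRCm38.p6, chr17:34972107-34972406 for Hspa1a and chr17:34959189-34959488 for Hspa1b, both minus strand) show how alike the copies are around the start. With 250 of the bases before the start and 50 after it, the windows cannot show whether probes for the transcripts separate the genes. They share 296 of 300 positions (98.67%), and capitals mark the 4 that differ. Both hold the heat shock letters GAANNTTC at -104, which stood in 4 of the 27 genes with a window and in 7.86% of all windows.
Hspa1a: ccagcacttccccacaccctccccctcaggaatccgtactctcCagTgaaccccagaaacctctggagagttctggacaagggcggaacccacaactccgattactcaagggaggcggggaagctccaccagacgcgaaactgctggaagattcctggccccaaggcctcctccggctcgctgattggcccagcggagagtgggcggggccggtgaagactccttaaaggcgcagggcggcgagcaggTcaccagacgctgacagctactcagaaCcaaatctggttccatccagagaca
Hspa1b: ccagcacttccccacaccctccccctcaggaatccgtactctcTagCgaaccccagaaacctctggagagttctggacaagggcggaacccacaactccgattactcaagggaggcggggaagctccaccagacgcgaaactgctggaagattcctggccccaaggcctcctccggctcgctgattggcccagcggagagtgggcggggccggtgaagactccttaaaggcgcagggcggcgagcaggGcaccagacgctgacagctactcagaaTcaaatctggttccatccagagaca

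Genes of the wider response were taken from lists of known pathway genes. Among other immediate early genes 29 of 30 were measured, and the median deviation was 0.18, -0.04 and -0.12 on the wild-type arrays and -0.01, 0.08 and -0.09 on the Dnmt3a +/- arrays. Wild-type replicate 1 was the highest wild-type array for 24 of the 29, and it was the highest of all 6 for 12, with Dnmt3a +/- replicate 2 highest for 11. Btg2, an antiproliferative gene, read 9.89 on wild-type replicate 1 and 8.26 to 8.77 on the other arrays. By genotype 18 were lower and 11 higher (median -0.04), and 0 had an unadjusted p under 0.05, where 7.49% of all genes lay. The smallest were those of Klf10 at -0.23 (SE 0.13), Btg2 at -0.58 (SE 0.33) and Csrnp1 at -0.19 (SE 0.12), all with adjusted p of 0.646 to 0.665 in limma.

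Upstream lie the signalling genes. Of SRF, its cofactors and MAP kinases 20 of 22 were measured, and wild-type replicate 1 deviated by 0.03. In this list 17 genes were lower and 3 higher, with a median difference of -0.10 that was 0.02 after cyclic loess. An unadjusted p under 0.05 was found for 1, where 7.49% of all genes lay. It was the kinase gene Map2k3 at -0.37 (SE 0.12, adjusted p = 0.631, limma). Map2k4 at -0.22 (SE 0.11) and Rps6ka1 at -0.19 (SE 0.12) followed. Of 15 relatives of the AP-1 factors 10 were lower (median -0.12, and -0.02 after cyclic loess), led by Atf7 at -0.29 (SE 0.10), Batf at -0.30 (SE 0.15) and Atf4 at -0.28 (SE 0.15). Of 8 NF-kappaB subunits and kinases 7 were lower (median -0.16), where 54.3% of all genes were lower. Without Dnmt3a +/- replicate 2 all 8 were lower with a median of -0.08, and after cyclic loess 6 were lower with a median of -0.10. Rel stood at -0.29 (SE 0.11), Ikbkb at -0.31 (SE 0.14) and Nfkb1 at -0.18 (SE 0.16). Atf7 and Rel were the only genes of their lists with an unadjusted p under 0.05.

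Relatives of the feedback genes (21 measured) were balanced in direction, with 12 lower, 9 higher and a median of -0.03. Of these, 3 had an unadjusted p under 0.05, Socs2, Spry2 and Nfkbid, where 7.49% of all genes lay. Socs2, a STAT5-induced inhibitor of cytokine receptors, measured 6.84, 7.07 and 7.01 on wild-type arrays against 7.27, 7.51 and 7.35 on Dnmt3a +/- arrays. Every Dnmt3a +/- array lay above every wild-type array, where 6.74% of all genes were non-overlapping on that side. The difference was 0.40 (SE 0.12, unadjusted p = 0.0102, adjusted p = 0.631, limma). Spry2, an inhibitor of receptor tyrosine kinase signalling, stood at -0.53 (SE 0.20) and Nfkbid, a nuclear IkappaB, at -0.31 (SE 0.13).

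The wider heat shock response had another low array. All 22 listed chaperones and regulators were measured, and 21 were lower in Dnmt3a +/- samples with a median of -0.19. Yet 0 passed, and 1 had an unadjusted p under 0.05, where 7.49% of all genes lay. That was Dnajb4 at -0.35 (SE 0.15, adjusted p = 0.631, limma), followed by Bag3 at -0.31 (SE 0.14) and Dnaja1 at -0.28 (SE 0.17). Dnmt3a +/- replicate 2 was the lowest array for 18 of the 22, with a median deviation of -0.38, and without it the median was -0.05 with 16 lower. After cyclic loess the median was -0.10. Dnajb1, the Hsp40 partner of Hsp70, read 9.50 on wild-type replicate 1 and 8.23 to 8.65 on the others, while Hspa8, the constitutive Hsp70, was highest on wild-type replicate 2 (12.20). These 2 were chosen after their values were seen.

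**Figure D4:**
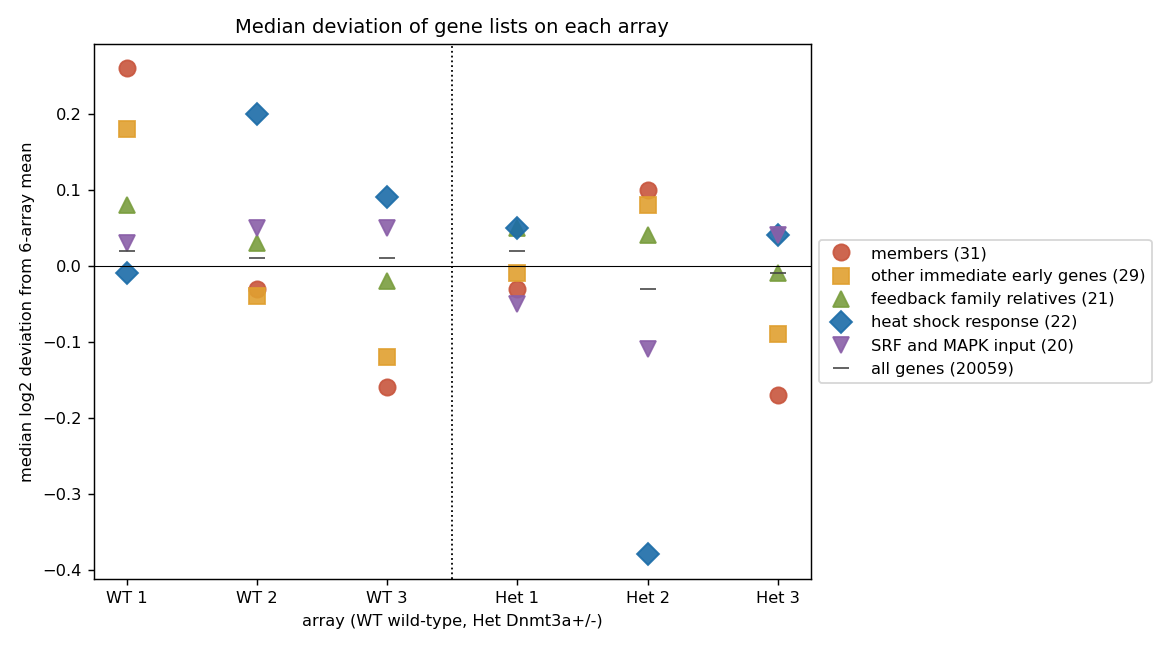
Median log2 deviation from the 6-array mean on each array for the 31 measured genes, for 4 further lists and for all genes (numbers of genes in the legend). The 31 genes and the other immediate early genes are highest on wild-type replicate 1 (0.26 and 0.18) and lowest on the arrays numbered 3, whereas the heat shock list is lowest on Dnmt3a +/- replicate 2 (-0.38).

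Marker lists of other cells were set beside these arrays. On wild-type replicate 1 the median deviation was 0.19 for neutrophil, 0.14 for T and NK, 0.00 for B lineage, -0.02 for monocyte and macrophage, 0.02 for megakaryocyte and -0.16 for erythroid markers. Neutrophil markers were highest on Dnmt3a +/- replicate 1 (0.57) and lowest on wild-type replicate 2 (-0.73), arrays on which the 31 genes deviated by -0.03 each. On Dnmt3a +/- replicate 2, the second high array, the B lineage list deviated by 0.26, the megakaryocyte list by 0.23 and the neutrophil and the T and NK lists by 0.12 each. On the arrays numbered 3, wild-type first, the megakaryocyte list deviated by -0.13 and -0.19, the T and NK list by -0.15 and -0.11 and the B lineage list by -0.21 and -0.09. The megakaryocyte, T and NK and B lineage lists were low on the arrays numbered 3 and high on Dnmt3a +/- replicate 2, as the 31 genes were. On wild-type replicate 1 the 31 genes were highest (0.26). There the T and NK list stood at 0.14, but the megakaryocyte list at 0.02 and the B lineage list at 0.00. Their part in the result was not tested.

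Single probe sets were also counted. Of the 249, 130 (52.2%) were highest on wild-type replicate 1, where 17.4% of all 628415 probe sets above the filter were. By genotype 143 were lower and 106 higher in Dnmt3a +/- samples. With limma adjusted over all probe sets 0 passed, 9 had an unadjusted p under 0.05 (6.21% of all did), and the genotypes did not overlap for 9 lower and 8 higher, where 6.1% and 6.31% of all probe sets above the filter did not. In 26 of the 31 genes the probe sets lay on both sides of 0. Those with all probe sets on 1 side were Fosb, Junb, Dusp2 and Hspa1a, lower, and Klf4, higher.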

How the data were processed

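Whole-transcript arrays of 6 KLS samples were analysed. The authors deposited intensity values, 1 per probe set and array, on a linear scale (1.84 to 22239, array medians 59.8 to 61.6), made with RMA in Partek per the submitters' processing notes, with no versions stated. RMA evens out the array distributions and so hides any shift of the whole transcriptome. Log2 was taken with no pseudocount.

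Of 1256831 probe sets, 318760 carried 1 symbol in the platform annotation, 6684 several and 931387 none listed. Symbols were updated through the RefSeq gene table of GRCm38.p6 (18006 current, 4227 updated, 63 kept). A gene value is the mean of its probe sets above the median level. The genotype difference came from limma 3.58.1 (R 4.3.3, lmFit and eBayes without covariates), adjusted over all 20059 genes. The fit was tested on simulated data with noise drawn separately for each gene and array. Deviations that many genes share on an array were not part of that simulation. Exact permutation of 3 against 3 arrays cannot go under p = 0.1, so none is given. Alternatives were 2 other filters, the probe-set median, 2 normalizations, a variance trend, array weights, the replicate block and each array left out. Precision is limited by the number of arrays. The named genes were all members, and of each pathway list the 3 with the smallest p. Promoter windows come from RefSeq. Members and lists were chosen with earlier results of these data known.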

Additional observations from a re-analysis of the deposited data

How the results depend on the processing

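The absence of calls held throughout: 0 of the 31 measured genes of the list (members) and 0 of all genes had an adjusted p under 0.05 in any of the 14 alternatives that tested them. With the filter at the 75th percentile 30 members were tested, since Atf3 had no probe set left. Genes with an unadjusted p under 0.05 numbered 2593 with array weights and 925 to 1928 with 1 array left out, against 1502. Members with an unadjusted p under 0.05 are given here with the share of all genes under it in the same setting. They numbered 1 with the median of probe sets (Nfkbia, 6.78% of all genes), cyclic loess (Ier5, 6.59%) or a repeated quantile normalization (Ier5, 6.24%). With array weights there was 1 (Socs3, 12.9%), and with a variance trend and robust estimation 2 (Klf4 and Ier5, 7.5%). With 1 array left out there were 0 to 2 (4.61% to 9.61%). Non-overlapping members numbered 0 with the filter at the 75th percentile (15.5% of all genes), 1 with no filter (15.2%), 1 after cyclic loess (13.4%), 1 after the repeated quantile normalization (13.3%), and 5 to 7 with 1 array left out (22.5% to 31.8%), since fewer arrays overlap less often. The median member difference was -0.20 to 0.03 with 1 array left out. With the replicate number as a block 1 member had an unadjusted p under 0.05, where 6.35% of all genes lay. It was Hspa1a (-0.88, limma unadjusted p = 0.00185, adjusted p = 0.714). Deviations of same-numbered arrays correlated across genes at -0.048, -0.091 and 0.11 for numbers 1 to 3, and those of differently numbered arrays at -0.17 to 0.17. The labels do not say that equal numbers pair arrays, so the numbers were not taken as pairs. Whether same-numbered arrays shared a batch was not tested. The count of members highest on wild-type replicate 1, examined after the data were seen, was 15 with the median of probe sets, 19 after cyclic loess, 20 with the filter at the 75th percentile, 21 with no filter, and 22 to 23 with another array left out.

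Of 433 recomputed member differences 51 changed sign, and the cause was not tested. With the filter at the 75th percentile these were Egr3 (-0.14), Nr4a3 (0.06), Socs3 (-0.13) and Rhob (0.0052), and with no filter Nr4a3 (0.03). With the median of probe sets they were Jun (-0.009), Egr1 (-0.09), Klf6 (0.22), Ier3 (0.28) and Zfp36 (-0.15). After cyclic loess they were Egr2 (-0.03), Egr3 (-0.01), Klf6 (0.08), Ier3 (0.0062), Nfkbia (0.0051) and Nfkbiz (0.03), after the repeated quantile normalization Egr2 (-0.01), Klf6 (0.07) and Nfkbiz (0.01), and with array weights Fos (0.10), Klf6 (0.01) and Dusp1 (0.09). With 1 array left out the ranges of differences that changed sign were -0.56 to 0.44 for Fos, -0.55 to 0.02 for Fosb, -0.30 to 0.57 for Jun, -0.28 to 0.06 for Jund, -0.11 to 0.43 for Egr1, -0.07 to 0.10 for Egr2, -0.0044 to 0.12 for Egr3, -0.39 to 0.0024 for Nr4a1, -0.08 to 0.50 for Nr4a2, -0.29 to 0.25 for Klf6, -0.04 to 0.10 for Myc, -0.42 to 0.08 for Ier3, -0.50 to 0.19 for Dusp1, -0.20 to 0.31 for Zfp36, -0.01 to 0.40 for Socs3, -0.17 to 0.03 for Nfkbiz, -0.24 to 0.07 for Rhob. The other members kept their sign, with ranges of 0.06 to 0.30 for Fosl2, -0.34 to -0.11 for Junb, 0.07 to 0.39 for Atf3, -0.13 to -0.01 for Nr4a3, 0.03 to 0.26 for Klf2, 0.20 to 0.41 for Klf4, -0.32 to -0.03 for Ier2, -0.37 to -0.20 for Ier5, -0.32 to -0.05 for Dusp2, -0.27 to -0.10 for Dusp6, -0.47 to -0.15 for Zfp36l1, -0.17 to -0.06 for Nfkbia, -0.21 to -0.02 for Gadd45b, -1.47 to -0.19 for Hspa1a.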
